A study of Mus musculus with 8 samples.

Results

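The genes described are 32 cholesterol and fatty acid synthesis genes of the mouse, found by gene symbol among the 18257 genes of the deposited table. They comprise 17 genes of the sterol branch (16 enzymes from Hmgcs1 to Dhcr7 and the sterol carrier gene Stard4), 10 genes of the fatty acid branch and 5 genes of the regulatory system that both branches share. All 32 were found, and all 32 passed the filter on low counts. The RNA came from wild-type morulae, in 4 control libraries from embryos kept in KSOM medium with 0.1% DMSO and 4 libraries from embryos kept in KSOM with 2 µM A485. A485 inhibits the catalytic activity of the acetyltransferases p300 and CBP. Treatment began at the 4-cell stage, and the protocol runs to the blastocyst while the sampled embryos are labelled morula. Each library was made from 3 embryos pooled after removal of the zona pellucida, and the strain and the age of the parents are not given in the sources used here.

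Cells make cholesterol from acetyl-CoA through mevalonate, farnesyl diphosphate, squalene and lanosterol, and make fatty acids from the same acetyl-CoA through malonyl-CoA. The transcription factors SREBP-1 and SREBP-2, the products of Srebf1 and Srebf2, are made as membrane proteins of the endoplasmic reticulum, where Scap escorts them to the Golgi for cleavage and the Insig proteins hold them back when sterols are plentiful. SREBP-2 acts mainly on sterol genes and SREBP-1 mainly on fatty acid genes, and the early embryo is known for its store of lipid droplets.

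Estimated counts summed to 23641781 to 25677701 in a library, and the lowest count of any of the 32 genes was 8, for Fads2. CPM is a gene's counts per 1000000 counts of the library, with library sizes scaled by TMM, and TPM is the authors' deposited value per transcript length. Means are given ± SD over 4 libraries per group, and log2 fold changes of A485 over control ± SE. In edgeR's quasi-likelihood test 54.7% of 12936 genes passed an adjusted p of 0.05, 29.7% higher and 25.0% lower in A485. Over all genes the median log2 fold change was 0.085, or 0.37 with total-count scaling, so each difference is relative to the other genes. All 11 morula markers checked (Pou5f1, Nanog, Cdx2 and others) were detected in both groups and all 11 fell (10 with total-count scaling). Their summed level lay at 9955 to 11314 CPM in control and 1624 to 5936 CPM in A485 libraries. Dppa3 alone made up most of the control sum, at 7211 ± 403 CPM, and stood at 2003 ± 1464 CPM in A485. Whether fewer cells of a type or less RNA per cell lies behind a lower level cannot be told apart in pooled embryos, and the part of these markers in the lipid genes was not tested. Of the 10 cumulus and granulosa cell markers 6 were at 0 in control libraries and none was at 0 in all A485 libraries, but the summed level was 24.1 to 40.7 CPM in control and 24.6 to 48.5 CPM in A485, nearly all of it Amhr2, and 1 of 2 tested rose. Of the 7 fibroblast markers 3 were at 0 in control, 1 tested gene fell, and their sum was at most 2.03 CPM in any library. Of the 10 oocyte markers 6 were tested and 1 rose (0 to 4 when 1 library was left out), with sums of 20.4 to 33.8 and 19.6 to 38.4 CPM. A485 libraries 1 and 2 stood apart from A485 libraries 3 and 4. The chi-square per degree of freedom over all genes was 64.2 and 57.8 within these pairs and 116 to 199 between them, against 18.8 to 33.1 among control libraries.

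The sterol and fatty acid branches differed in their counts. In the sterol branch 9 of 17 genes (52.9%) fell and 1 (5.9%) rose, where 25.0% and 29.7% of all tested genes did. Its median log2 fold change was -0.63, against 0.085 over all genes tested. In the fatty acid branch 3 of 10 genes fell and 3 rose, shares close to those of all genes, with a median of -0.16. Every gene called in the fatty acid branch changed at least 2-fold, as did 4 of the 10 called in the sterol branch. Of all tested genes, 22.2% were called and at least 2-fold higher and 14.3% called and at least 2-fold lower. Among the regulators 2 of 5 fell and 1 rose. The libraries of the groups did not overlap for 18 of the 32 genes, 13 lower and 5 higher in A485, where 51.5% of all genes did not overlap, 24.6% lower and 26.9% higher. These counts describe the lists, and the difference between the branches was not tested. With total-count scaling 5 genes of the sterol branch fell and 1 rose, and in the fatty acid branch 3 fell and 4 rose, while 17.8% of all tested genes fell and 38.1% rose under that scaling. Of the 32 genes, 19 in the authors' deposited table had a DESeq2 q-value under 0.05, the same 19 genes called here and each in the same direction.

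**Figure D1:**
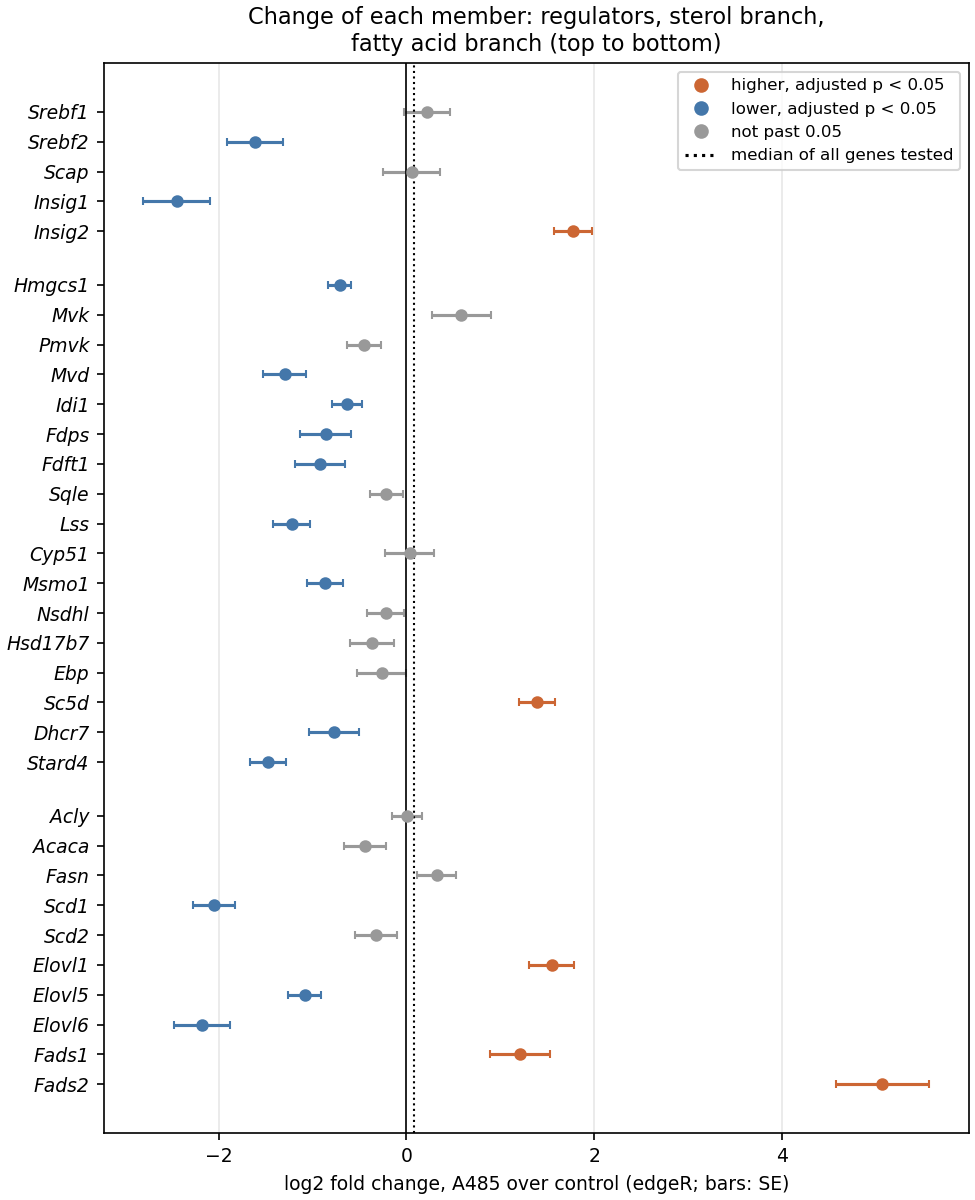
Log2 fold change of A485 over control (x axis) for each gene (y axis), with regulators at the top, the sterol branch in the middle and the fatty acid branch at the bottom. Points are edgeR estimates with SE bars from 4 libraries per group, coloured by call, and the dotted line is the median of all tested genes. Most sterol genes lie left of 0 with Sc5d at 1.39, and fatty acid genes spread from -2.18 (Elovl6) to 5.07 (Fads2).

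Among the regulators, both Insig genes changed and in opposite directions. Insig1, which encodes a retention protein of the endoplasmic reticulum and is itself a classical target of SREBP, stood at 67.5, 51.3, 109 and 64.8 CPM in control libraries 1 to 4 and at 18.7, 15.4, 13.9 and 5.76 CPM in A485 libraries 1 to 4. The groups did not overlap, the A485 level was lowest in library 4, and the log2 fold change was -2.44 ± 0.36 (adjusted p = 0.00034). Insig2, whose product has the same retention function, stood at 9.95, 10.4, 11.96 and 9.60 CPM in control and 27.8, 27.7, 43.8 and 43.9 CPM in A485. Its control libraries lay close together, all A485 libraries were above them and libraries 3 and 4 were the highest (log2 fold change 1.77 ± 0.21, adjusted p = 8.6e-05). Insig1 lies on chromosome 5, 28071412 to 28078662, and Insig2 on chromosome 1, 121304353 to 121332662 (GRCm38.p6).

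Srebf2, the gene of SREBP-2, fell. It stood at 9.86, 4.65, 10 and 12.6 CPM in control and 2.75, 3.04, 3.33 and 2.99 CPM in A485, with a log2 fold change of -1.61 ± 0.30 (adjusted p = 0.0012). Control library 2 was the lowest of its group and still above every A485 library. Srebf1, the gene of SREBP-1, was at 5.93 ± 1.49 CPM in control and 6.89 ± 1.42 CPM in A485 with overlapping libraries (log2 fold change 0.22 ± 0.25, adjusted p = 0.47). Scap, the gene of the escort protein, also overlapped, at 10.04 ± 3.63 and 10.4 ± 2.84 CPM (log2 fold change 0.06 ± 0.30, adjusted p = 0.89). Per transcript length Srebf2, Srebf1 and Scap were all low, at 1.90 ± 0.674, 1.32 ± 0.326 and 2.38 ± 0.861 TPM in control.

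The sequences upstream of some of these genes are shown because the sterol genes share a motif that the choice of genes did not use. The letters CCAAT are the core that the factor NF-Y binds, and NF-Y is known to act beside SREBP at sterol promoters. CCAAT was searched on both strands in the 250 bases before each start site in RefSeq's promoter table (GRCm38.p6), which has entries for 25 of the 32 genes. At least 1 window held it in 20 of these 25 genes (80.0%) and in 41.4% of the 10271 tested genes with an entry. All 13 sterol genes with an entry held it, as did 4 of 5 regulators and 3 of 7 fatty acid genes. Those 13 sterol genes include Sc5d, which rose, and Mvk, Pmvk, Cyp51, Nsdhl, Hsd17b7 and Ebp, which were not called. The others, Hmgcs1, Mvd, Idi1, Lss, Msmo1 and Dhcr7, fell. Single windows held CCAAT in 21 of 34 cases among these genes and in 33.85% of 32851 windows in all. The letters TCACNCCAC, which match the core of the classical sterol regulatory element, were found in the window of 1 gene, Hmgcs1, and in 1.05% of all windows. A match is a description of these letters only.

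Insig1 (fell) and Insig2 (rose) are shown as the opposed pair of regulators, Hmgcs1 and Mvd as sterol genes that fell, and Elovl6 and Fads2 as the fatty acid genes with an entry that fell and rose the most. Each is 250 bases, 5′ to 3′ on the gene's strand, with CCAAT or its reverse complement and TCACNCCAC in capitals. Insig1 is at chr5:28071162-28071411, plus strand. Insig2 is at chr1:121332590-121332839, minus strand, the most upstream of its 3 windows. Hmgcs1 is at chr13:119690101-119690350, plus strand, and among the windows shown only its start was not found in a sense transcript of the gene. Mvd is at chr8:122443423-122443672, minus strand. Elovl6 is at chr3:129532136-129532385, plus strand. Fads2 is at chr19:10101504-10101753, minus strand.
Insig1: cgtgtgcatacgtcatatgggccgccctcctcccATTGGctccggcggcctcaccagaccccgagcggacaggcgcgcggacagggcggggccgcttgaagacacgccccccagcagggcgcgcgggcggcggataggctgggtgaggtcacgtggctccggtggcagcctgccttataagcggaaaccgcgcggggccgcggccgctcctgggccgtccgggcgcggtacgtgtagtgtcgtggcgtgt
Insig2: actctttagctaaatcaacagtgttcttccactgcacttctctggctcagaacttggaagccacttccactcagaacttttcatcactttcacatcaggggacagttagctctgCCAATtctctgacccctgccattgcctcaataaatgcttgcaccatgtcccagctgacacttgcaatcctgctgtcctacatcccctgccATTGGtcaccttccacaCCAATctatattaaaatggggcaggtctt
Hmgcs1: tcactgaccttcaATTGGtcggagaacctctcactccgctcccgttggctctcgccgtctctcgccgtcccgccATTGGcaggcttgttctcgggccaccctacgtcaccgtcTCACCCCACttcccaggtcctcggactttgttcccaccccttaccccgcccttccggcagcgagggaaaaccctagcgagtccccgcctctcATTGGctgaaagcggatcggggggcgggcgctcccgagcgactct
Mvd: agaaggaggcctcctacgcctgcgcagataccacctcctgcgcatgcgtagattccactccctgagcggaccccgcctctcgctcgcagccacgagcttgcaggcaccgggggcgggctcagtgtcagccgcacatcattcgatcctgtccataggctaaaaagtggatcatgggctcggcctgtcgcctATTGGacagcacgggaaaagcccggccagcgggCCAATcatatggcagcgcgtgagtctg
Elovl6: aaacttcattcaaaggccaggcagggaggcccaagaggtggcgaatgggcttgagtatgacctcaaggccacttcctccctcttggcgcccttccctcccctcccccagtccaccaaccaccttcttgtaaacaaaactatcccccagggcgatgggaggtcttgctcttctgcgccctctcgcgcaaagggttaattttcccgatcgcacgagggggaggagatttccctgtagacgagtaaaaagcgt
Fads2: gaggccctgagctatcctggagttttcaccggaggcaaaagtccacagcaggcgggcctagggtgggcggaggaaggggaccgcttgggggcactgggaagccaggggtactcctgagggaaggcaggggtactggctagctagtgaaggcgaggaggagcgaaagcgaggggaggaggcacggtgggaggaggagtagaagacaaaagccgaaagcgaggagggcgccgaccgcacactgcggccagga
The Insig1 window holds 1 CCAAT, the Insig2 and Hmgcs1 windows 3 each and the Mvd window 2, while none is in the windows of Elovl6 and Fads2.

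**Figure D2:**
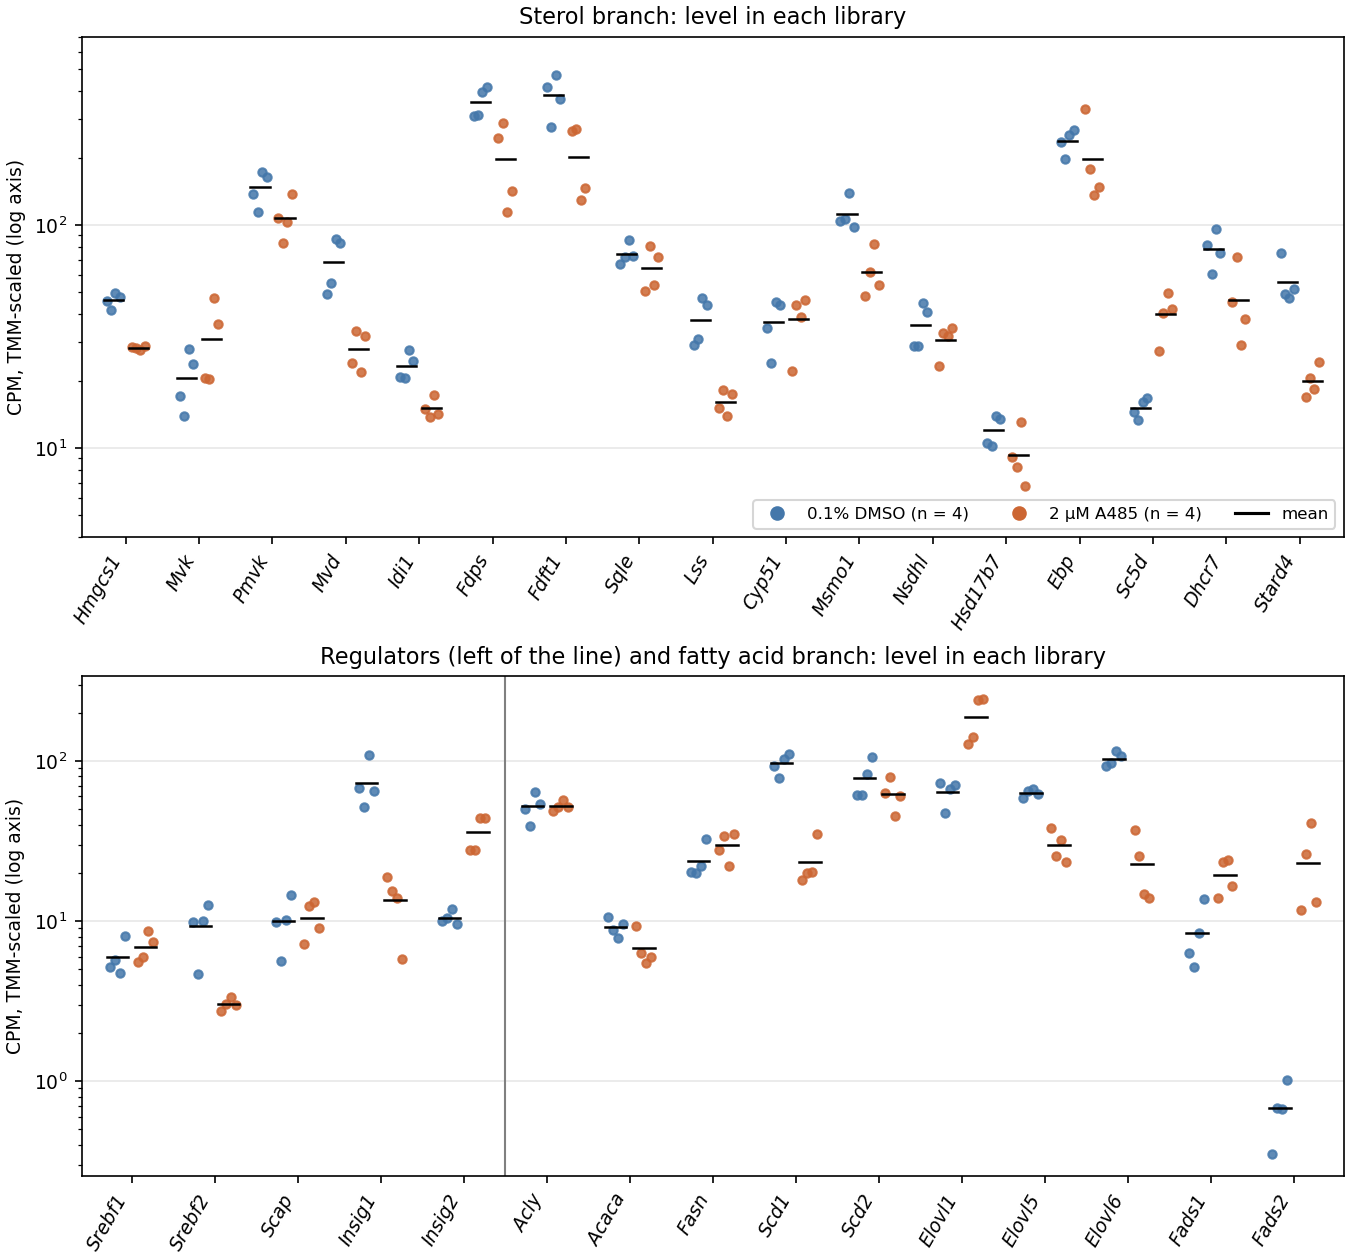
CPM with TMM-scaled library sizes (log axis) of every gene in each of the 8 libraries, the sterol branch in the upper panel and the regulators and fatty acid branch in the lower. Points are libraries and lines are means of 4. Hmgcs1, Mvd, Lss and Stard4 separate by group, while Sqle, Cyp51 and Acly overlap.

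In the early part of the sterol branch, from acetyl-CoA units to farnesyl diphosphate, 4 of 6 genes fell and none rose. Of all tested genes 25.0% fell and 29.7% rose. With total-count scaling 2 of the 6 fell, where 17.8% of all tested genes did. Hmgcs1, encoding HMG-CoA synthase, stood at 45.8, 41.5, 49.7 and 47.5 CPM in control and 28.4, 28.02, 27.7 and 28.6 CPM in A485. The 4 A485 libraries were within about 1 CPM of each other and all below control (log2 fold change -0.71 ± 0.12, adjusted p = 0.00088), and with total-count scaling the log2 fold change was -0.43 (adjusted p = 0.023). Mvd, encoding mevalonate diphosphate decarboxylase, stood at 49.2, 55.2, 86.7 and 83.1 CPM in control and 24.1, 33.6, 21.9 and 31.97 CPM in A485. Control libraries 3 and 4 were its highest, and the groups did not overlap (log2 fold change -1.30 ± 0.23, adjusted p = 0.00088). Idi1, encoding the isomerase that makes dimethylallyl diphosphate, fell from 23.4 ± 3.26 to 15.1 ± 1.55 CPM (adjusted p = 0.0073), and with total-count scaling its call was lost (log2 fold change -0.34, adjusted p = 0.14). Its deposited counts are not whole, so some reads were divided between genes.

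Fdps, encoding farnesyl diphosphate synthase, had the highest level per length of the 32 genes, 319 ± 58.3 TPM in control and 216 ± 91.3 TPM in A485. In CPM it stood at 308, 312, 398 and 416 in control and at 247, 286, 115 and 142 in A485, where libraries 1 and 2 lay closer to the controls than libraries 3 and 4 did. The log2 fold change was -0.86 ± 0.27 (adjusted p = 0.022). It was -1.50 without A485 replicates 1 and 2, and the call was lost without A485 replicate 4, control replicate 3 or control replicate 4 (adjusted p = 0.056, 0.057 and 0.057) and with total-count scaling (adjusted p = 0.078). Without A485 replicates 3 and 4 the log2 fold change was -0.42. Mvk, encoding mevalonate kinase, went the other way, at 17.1, 13.9, 27.9 and 23.9 CPM in control and 20.6, 20.3, 46.99 and 36.1 CPM in A485. Only A485 libraries 3 and 4 were above all controls, and it was not called (log2 fold change 0.58 ± 0.31, adjusted p = 0.14), whereas without A485 replicates 1 and 2 it was (0.99, adjusted p = 0.0095). Pmvk, encoding the next kinase of the pathway, was at 148 ± 26.7 and 108 ± 22.99 CPM (adjusted p = 0.059), and it passed as lower in 7 alternatives, among them DESeq2 (adjusted p = 0.042) and leaving out A485 replicate 4 (0.018) or control replicate 2 (0.032).

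In the late part, from squalene to cholesterol, 4 of 10 genes fell (40%), 1 rose (10%) and 5 were not called. Of all tested genes 25.0% fell and 29.7% rose. With total-count scaling 2 of the 10 fell and 1 rose. Fdft1, encoding squalene synthase, stood at 417, 276, 470.3 and 369 CPM in control and 266, 269, 130.1 and 147 CPM in A485. As with Fdps, A485 libraries 3 and 4 were the lowest, and A485 library 2 lay just under control library 2 (log2 fold change -0.92 ± 0.26, adjusted p = 0.014). Its log2 fold change was -1.49 without A485 replicates 1 and 2 and -0.52 without A485 replicates 3 and 4. Sqle, encoding the squalene epoxidase that performs the first oxygenation, overlapped at 74.4 ± 7.81 and 64.2 ± 14.3 CPM (log2 fold change -0.21 ± 0.17, adjusted p = 0.32). Lss, encoding the lanosterol synthase that closes the ring, stood at 29.1, 30.8, 47 and 44.02 CPM in control and 15.1, 18.1, 13.95 and 17.5 CPM in A485. All A485 libraries lay below all controls (log2 fold change -1.22 ± 0.20, adjusted p = 0.00053).

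Of the enzymes that turn lanosterol into cholesterol, Msmo1, a methyl sterol oxidase gene, fell by 0.87 ± 0.19 on the log2 scale, from 112 ± 18.4 to 61.6 ± 15.2 CPM (adjusted p = 0.0032), and with total-count scaling its call was lost (log2 fold change -0.56, adjusted p = 0.058). Cyp51, the lanosterol demethylase gene, was at 37 ± 9.79 and 37.9 ± 10.8 CPM, with A485 library 1 the lowest of all 8 (adjusted p = 0.92). Nsdhl and Hsd17b7, whose products act with Msmo1 in removing the methyl groups, were not called (log2 fold changes -0.22 ± 0.20 and -0.37 ± 0.23, adjusted p = 0.37 and 0.20). Without A485 replicate 3 Hsd17b7 passed (log2 fold change -0.58, adjusted p = 0.042).

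The last isomerisation, desaturation and reduction steps diverged. Ebp, the sterol isomerase gene, stood at 235, 199, 253 and 268 CPM in control and 333, 178, 137 and 148 CPM in A485, where library 1 was above every control and libraries 2 to 4 were below every control. It was not called (log2 fold change -0.26 ± 0.26, adjusted p = 0.42), and without A485 replicate 1 it was lower (-0.64, adjusted p = 0.0040). Sc5d, the lathosterol desaturase gene, was the sterol gene that rose, from 14.5, 13.4, 16.2 and 16.7 CPM in control to 27.3, 40.4, 49.6 and 42.2 CPM in A485. The lowest A485 library, library 1, was well above the highest control (log2 fold change 1.39 ± 0.19, adjusted p = 0.00024). Dhcr7, encoding the reductase of the final step, stood at 81.7, 60.2, 96.2 and 75.3 CPM in control and 45.4, 72.1, 28.9 and 37.8 CPM in A485. Its groups overlapped, since A485 library 2 was above control library 2 (log2 fold change -0.77 ± 0.27, adjusted p = 0.031). The call was lost in 10 of 19 alternatives, among them leaving out A485 replicate 1, 3 or 4 or control replicate 1, 3 or 4 (adjusted p = 0.053 to 0.086), and the log2 fold change was -1.25 without A485 replicates 1 and 2 and -0.42 without A485 replicates 3 and 4.

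Stard4, encoding a protein that carries sterol between membranes, fell in all A485 libraries. It stood at 75.3, 49.1, 47.2 and 51.6 CPM in control and 16.99, 20.7, 18.4 and 24.2 CPM in A485 (log2 fold change -1.47 ± 0.19, adjusted p = 0.00017). Control library 1 was well above the other controls.

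Per transcript length, the sterol genes of highest level in control after Fdps were Ebp, Pmvk and Fdft1, at 144 ± 20.8, 139.6 ± 29.7 and 130.1 ± 31.9 TPM. These 3 did not differ beyond their spread. Msmo1 and Mvd followed at 63.8 ± 13.1 and 41.1 ± 12.7 TPM, and the lowest of the branch were Sc5d and Hsd17b7 at 6.85 ± 0.862 and 3.24 ± 0.696 TPM. In A485 Sc5d stood at 22.5 ± 7.33 TPM, a rise in rank from 23 to 10 among the 32 genes. Summed over the 17 genes, the sterol branch took 896, 794, 1199 and 1059 TPM in control and 812, 964, 719 and 691 TPM in A485. These sums overlapped between groups.

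In the fatty acid branch none of the 3 genes of chain synthesis was called, and of all 12936 tested genes 5859 were not called. Acly, encoding the ATP citrate lyase that supplies cytosolic acetyl-CoA, was at 51.9 ± 10.4 CPM in control and 52.2 ± 3.64 CPM in A485 (log2 fold change 0.01 ± 0.16, adjusted p = 0.97). Acaca, encoding the acetyl-CoA carboxylase that makes malonyl-CoA, was at 9.17 ± 1.17 and 6.75 ± 1.72 CPM (log2 fold change -0.44 ± 0.22, adjusted p = 0.11), and it was lower without A485 replicate 1 (-0.64, adjusted p = 0.020). Fasn, encoding fatty acid synthase, was at 23.8 ± 5.99 and 29.7 ± 6.05 CPM (log2 fold change 0.32 ± 0.21, adjusted p = 0.22), and with total-count scaling it passed as higher (0.60, adjusted p = 0.037). Acaca and Fasn were low per length, at 0.930 ± 0.109 and 2.40 ± 0.605 TPM in control, against 11.6 ± 2.72 TPM for Acly.

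Of the 7 genes that desaturate or lengthen fatty acids, 3 fell, 3 rose (42.9% each) and Scd2 was not called. Of all tested genes 25.0% fell and 29.7% rose. Scd1, a stearoyl-CoA desaturase gene that places the first double bond, stood at 93.3, 78.7, 103 and 111 CPM in control and 18.1, 19.8, 20.3 and 35.03 CPM in A485. The groups were far apart, with A485 library 4 above the other 3 (log2 fold change -2.05 ± 0.23, adjusted p = 7.0e-05). Its neighbour Scd2, of the same activity, overlapped at 61.3, 61.4, 82.5 and 105 CPM in control and 62.8, 79.4, 45.6 and 60.5 CPM in A485 (log2 fold change -0.32 ± 0.22, adjusted p = 0.23). Scd1 lies on chromosome 19, 44394450 to 44407709, and Scd2 on chromosome 19, 44293676 to 44306864, with 87585 bases between them (GRCm38.p6). The deposited counts of Scd1 and Scd2 are not whole, so reads that fit several genes were divided between genes, and the same holds for Fdft1 and Elovl6. Scd3, another gene of this family, which was chosen after its values were seen, stood at 21.8, 48.7, 26.9 and 22.5 CPM in control and 128, 37.5, 11.3 and 15.6 CPM in A485, with A485 library 1 the highest (adjusted p = 0.45).

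The elongases went both ways. Elovl6, which lengthens saturated and monounsaturated chains, stood at 92.5, 97.1, 115 and 107 CPM in control and 36.9, 25.3, 14.8 and 14.01 CPM in A485, the largest fall of the branch (log2 fold change -2.18 ± 0.30, adjusted p = 0.00022). A485 libraries 3 and 4 were the lowest, and the groups did not overlap. Elovl5, which lengthens polyunsaturated chains, fell by 1.08 ± 0.17 on the log2 scale, from 63.1 ± 3.56 to 29.8 ± 6.75 CPM (adjusted p = 0.00050). Elovl1, which makes very long saturated and monounsaturated chains, rose from 73.1, 47.2, 66.4 and 70.8 CPM in control to 128, 141, 239 and 244 CPM in A485. A485 libraries 3 and 4 were the highest, and all 4 exceeded every control (log2 fold change 1.55 ± 0.24, adjusted p = 0.00049). Per length Elovl1 went from 38.2 ± 7.06 to 139 ± 52.7 TPM and from rank 7 to rank 3 among the 32 genes.

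Both front-end desaturase genes of polyunsaturated fatty acids rose. Fads2, the delta-6 desaturase gene, had the largest change of all 32 genes. It stood at 0.352, 0.677, 0.667 and 1.02 CPM in control, with 8 to 22 counts per library, and at 11.7, 26.3, 40.7 and 13.1 CPM in A485. The mean level was 33.8-fold higher (log2 fold change 5.07 ± 0.50, adjusted p = 4.4e-05), and A485 libraries 2 and 3 were above libraries 1 and 4. Fads1, the delta-5 desaturase gene, stood at 6.30, 5.15, 8.46 and 13.8 CPM in control and 14, 23.5, 23.99 and 16.5 CPM in A485, where the lowest library, library 1, lay just above control library 4 (log2 fold change 1.21 ± 0.32, adjusted p = 0.0082). Fads2 lies on chromosome 19, 10062765 to 10101503, and Fads1 on chromosome 19, 10182877 to 10196874, with 81373 bases between them (GRCm38.p6). Summed over the 10 genes, the fatty acid branch took 122, 105, 145 and 145 TPM in control and 142, 193, 281 and 234 TPM in A485. These sums overlapped between groups, and Elovl1 had the highest level in both.

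The ratios of related genes within a library were taken as log2 of CPM + 0.5 over CPM + 0.5, and all 4 ratios examined differed between groups. The log2 ratio of Insig1 to Insig2 was 2.70, 2.25, 3.14 and 2.69 in control and -0.56, -0.83, -1.62 and -2.83 in A485, so the CPM of Insig1 exceeded that of Insig2 in every control library and was below it in every A485 library. The ratio of Scd1 to Scd2 was 0.60, 0.36, 0.32 and 0.07 in control and -1.76, -1.97, -1.15 and -0.78 in A485, which also changes sign between groups. The ratio of Fads1 to Fads2 was 3.0, 2.26, 2.94 and 3.23 in control and 0.25, -0.16, -0.75 and 0.32 in A485. The added 0.5 CPM is near the control level of Fads2 and lowers its control ratios, so the size of this difference depends on it. The ratio of Srebf1 to Srebf2 was -0.87, 0.28, -1.0 and -0.61 in control and 0.89, 0.88, 1.26 and 1.17 in A485, with control library 2 the only control above 0. The mean differences were -4.15, -1.75, -2.94 and 1.60. A two-sided exact permutation of the 8 libraries (70 assignments) gave p = 0.029 for each, the smallest p the design allows, and 0.029 after Benjamini-Hochberg adjustment over the 4 ratios. The pairs were chosen with earlier results of these data known. For Insig1 and Insig2, whose libraries separated in opposite directions, this p follows from the levels of the genes. The ratios therefore restate those levels and are not separate support. Without a pseudocount, an alternative chosen after seeing the data, the Fads1 to Fads2 difference was -3.71, and on the authors' TPM with 0.5 added it was -2.26. In the same 2 settings the Srebf1 to Srebf2 difference was 1.75 and 1.24, with every p again 0.029.

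**Figure D3:**
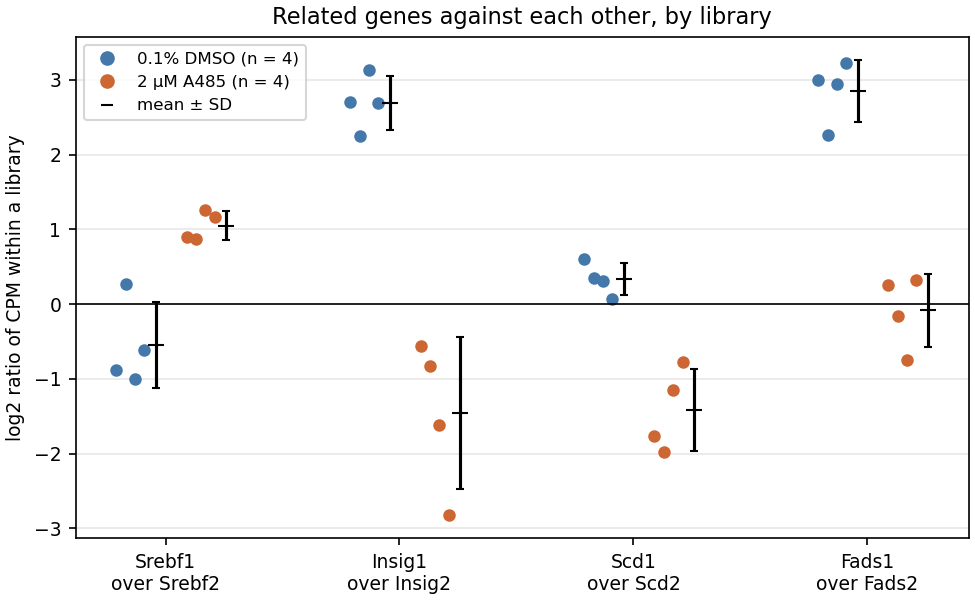
Log2 ratio of CPM (y axis, 0.5 CPM added to each gene) for 4 pairs of related genes (x axis), 1 point per library, with mean ± SD of 4 libraries beside each group. Control and A485 libraries do not overlap in any pair, and the mean of Insig1 over Insig2 goes from 2.70 to -1.46.

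The order of the A485 libraries in these genes was set beside that in all tested genes, without a test. A485 libraries 1 and 2 were both above libraries 3 and 4 for 8 of the 32 genes and both below them for 6, where 21.4% and 27.9% of all tested genes were so ordered. The first set was Insig1, Fdps, Fdft1, Ebp, Dhcr7, Acaca, Scd2 and Elovl6, and the second Srebf1, Insig2, Mvk, Sc5d, Scd1 and Elovl1. The mean of libraries 1 and 2 was 2.16 times that of libraries 3 and 4 for Elovl6 and 2.08 times for Fdps, and that of libraries 3 and 4 was 2.03 times that of libraries 1 and 2 for Mvk. Without A485 replicates 1 and 2 the sterol branch had 10 genes lower and 2 higher and the fatty acid branch 4 lower and 3 higher. Without A485 replicates 3 and 4 the counts were 9 and 1 in the sterol branch and 3 and 3 in the fatty acid branch. The shares of all genes called in these fits are not given here.

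Other genes around these pathways were read from lists drawn up by function, with earlier results of these data known. The genes named from them had an adjusted p of at most 0.0053. For comparison with the counts below, 29.7% of all tested genes rose and 25.0% fell, or 38.1% and 17.8% with total-count scaling. These are not shares for the 5 CPM filter or for fits with libraries left out, which are not given here. Among 10 genes of SREBP processing 4 rose and 1 fell, or 2 fell with DESeq2 and without A485 replicate 4 or control replicate 1. Of 11 isoprenoid genes 1 rose and 3 fell, or 3 rose and 1 fell with total-count scaling. Mbtps1, the site-1 protease gene of SREBP cleavage, rose from 12.3 ± 1.24 to 19.8 ± 1.14 CPM, and Paqr3, a Golgi anchor gene of Scap, from 2.67 ± 0.676 to 5.85 ± 0.257 CPM. Dhdds, encoding a subunit of the dolichol-making prenyltransferase, fell by 1.33 ± 0.15 on the log2 scale, while Ggps1, the geranylgeranyl diphosphate synthase gene, rose from 27.9 ± 2.19 to 60.2 ± 19.5 CPM. Pdss1, of coenzyme Q side chain synthesis, fell by 0.61 ± 0.15, and its call was lost with total-count scaling (adjusted p = 0.14).

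Of 23 tested genes of sterol handling 13 rose and 2 fell. The list is mixed, with genes of storage, efflux, uptake and turnover and further enzymes of sterol synthesis. Genes of uptake and of synthesis are among those that rose. Several of the 13 had few control counts and passed the filter on low counts through the A485 libraries. The filter of 5 CPM left 12 of the 23, of which 5 rose and 2 fell, with a median log2 fold change of 0.50 against 1.03 for the 23. Without A485 replicates 1 and 2, 15 rose and 4 fell. The 3 of smallest p were low in control. Cyp46a1, a cholesterol hydroxylase gene, went from 0.643 ± 0.349 to 9.11 ± 2.99 CPM. Lipa, the lysosomal acid lipase gene, and Cyp27a1, a sterol hydroxylase gene, each had 5 counts summed over control libraries, and they had 279 and 338 summed over A485 libraries. In the list on fatty acid supply 3 of 11 rose and 3 fell (27.3% each, 1 fell with total-count scaling), near the shares of all tested genes (29.7% and 25.0%). Slc25a1, the mitochondrial citrate carrier gene, rose from 30.2 ± 11.5 to 183 ± 66.3 CPM, and Me1, a malic enzyme gene that yields NADPH, from 27.6 ± 7.53 to 113 ± 42.5 CPM, whereas Mid1ip1, encoding a protein that activates acetyl-CoA carboxylase, fell from 12.3 ± 3.46 to 1.42 ± 1.24 CPM. Of 12 further genes of chain elongation and desaturation 6 rose and 2 fell, and 3 rose with the 5 CPM filter. The 3 of smallest p were the dehydratase genes of the elongation cycle Hacd1, Hacd2 and Hacd3, which rose with log2 fold changes of 2.00 ± 0.25, 1.65 ± 0.19 and 1.89 ± 0.19.

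**Figure D4:**
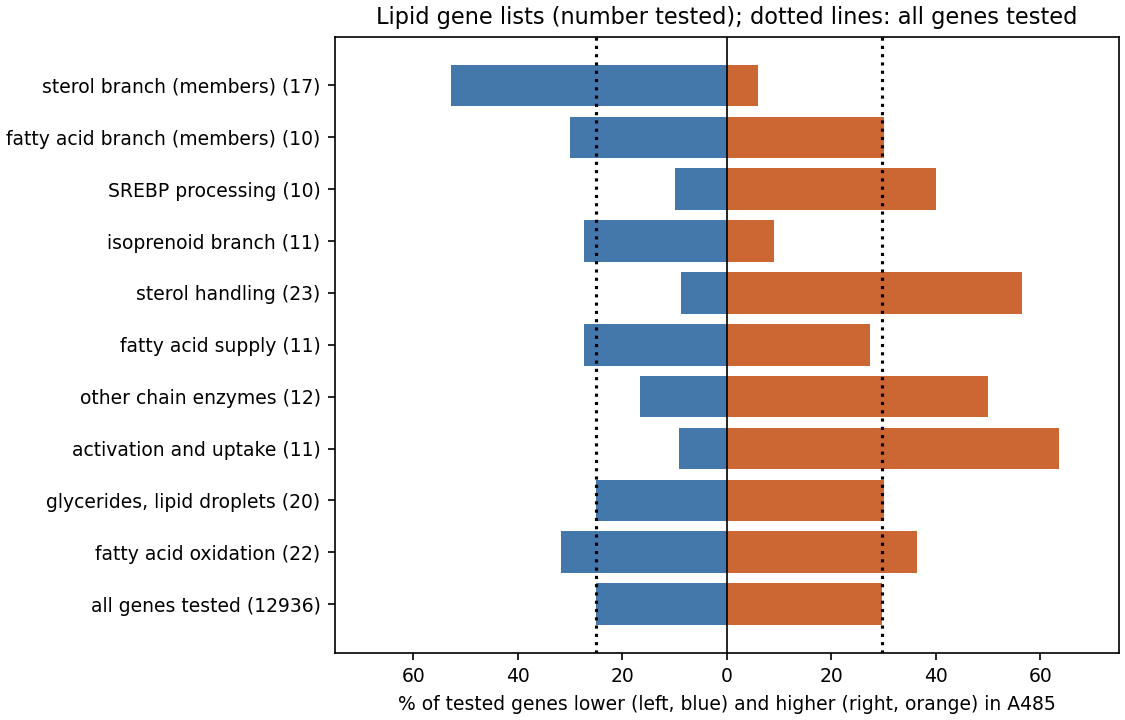
Percent of tested genes called lower (left) and higher (right) in A485 (edgeR, adjusted p under 0.05) in each lipid gene list, with the number tested in brackets and dotted lines at the shares of all 12936 genes (25.0% lower, 29.7% higher). The sterol branch has 52.9% lower and 5.9% higher, and the fatty acid branch 30.0% each way.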

How the data were processed

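Polyadenylated RNA of 8 pools of 3 morulae was measured, 4 pools per group. Per the labels' protocols a low-input cDNA kit with preamplification was used before transposase library construction. Each pool is called a biological replicate there. Batch, litter and strandedness are not given in the sources used here, so p-values measure the spread between these pools. Per the submitters' processing notes the tools were RSEM 1.2.28, HISAT2 2.2.1 and DESeq2 1.40.2, on GRCm38.p6. The authors deposited estimated counts (18.2% of values not whole), TPM values per transcript length, and a DESeq2 log2 fold change and q-value. Their 16 columns of FPKM and normalized counts were not used. The deposited table lists Insig2 on the plus strand and RefSeq on the minus strand, which was used for its sequence.

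Counts were rounded and tested in R 4.3.3 with the robust quasi-likelihood test of edgeR 4.0.16 after filterByExpr and TMM, with group in the model alone. The p-values were adjusted by Benjamini-Hochberg over 12936 genes, and 0.05 was the threshold. SE is the absolute log2 fold change over the root of F. TPM entered levels per length and 1 alternative for the ratios. Ratios had 0.5 CPM added to each gene. On simulated counts for A485 versus control (11084 genes, 200 changed, spread as in control libraries) edgeR recovered 77% of 2-fold and 98% of 4-fold changes, with 3.85% false calls. These rates may not hold for the data, where A485 libraries spread more than controls and 54.7% of genes were called. The genes, lists, tests and alternatives were chosen with earlier results of these data known. All 32 genes are named, and from each other list the 3 of smallest p among those called, of which 1 is not reported here. Of 202 listed genes 1 was not found by symbol. Correlations of deviations between control and A485 samples of the same replicate number were low (0.0051 to 0.10). The own number gave the highest correlation for replicates 3 and 4 but not for 1 and 2, so pairing is not settled. No replicates of a group agreed within sampling noise. Alternatives were DESeq2 1.42.0, limma-voom (limma 3.58.1), other factors and filters, non-robust dispersion, a replicate block and leaving out libraries. Figures used matplotlib 3.10.9 in Python 3.11.15.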

Additional observations from a re-analysis of the deposited data

Results flagged for a closer look

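Of 72 groups of 4 values examined (the 32 genes and 4 ratios in both groups), 3 held a library far from its 3 neighbours by Dixon's criterion, which chance gives in about 1 of 20 groups. Stard4 was at 75.3 CPM in control replicate 1 and at 47.2 to 51.6 CPM in the other controls. Fasn was at 32.7 CPM in control replicate 4 and at 20 to 22.1 CPM in the other controls. Scd1 was at 35.0 CPM in A485 replicate 4 and at 18.1 to 20.3 CPM in the other A485 libraries. Without control replicate 1 Stard4 kept its call, without A485 replicate 4 Scd1 kept its call, and without control replicate 4 Fasn had a log2 fold change of 0.50 (adjusted p = 0.067).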

How the results depend on the processing

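Of 607 values of the 32 genes over 19 alternatives, 576 kept their side of the threshold, 16 lost a call and 15 gained one. None that was called reversed, while some genes not called, such as Srebf1, Scap and Cyp51, changed sign in some alternatives. In every alternative run 22 genes kept their side. Srebf2 was not tested with the 5 CPM filter. With that filter 2526 genes were called higher in place of 3839, and 1 regulator lower in place of 2. With total-count scaling 5 sterol genes were lower in place of 9, and the median of the fatty acid branch was 0.13 in place of -0.16, with all genes at 0.37; Hmgcs1, Mvd, Fdft1, Lss and Stard4 stayed lower. With a replicate block, although pairing by number is not established, 2 sterol genes were higher in place of 1, and 2 were without A485 replicates 1 and 2. Leaving out 1 library gave 7 to 10 sterol and 3 to 4 fatty acid genes lower, and 2784 to 3520 lower among all genes. The ratio of Srebf1 to Srebf2 differed by 1.45 to 1.88 when 1 library was left out, with an adjusted exact p of 0.057 whichever A485 library was left out and 0.029 whichever control was. The causes were not tested. The counts of Fads2 in control (8 to 22) limit its fold change.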

Other observations

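Among genes of fatty acid use the oxidation list went both ways, while most genes called in the list on activation and uptake rose. Of all tested genes 29.7% were higher and 25.0% lower. Of 11 tested genes of fatty acid activation and uptake 7 rose and 1 fell, or 2 fell without A485 replicate 1. Some that rose were low in control, and the 5 CPM filter left 8 genes, of which 5 rose and 1 fell. The shares of all genes with that filter are not given here. Fabp3, a fatty acid binding protein gene, went from 818 ± 38.3 CPM up to 2460.5 ± 604 CPM (mean ± SD over 4 libraries), while its relative Fabp5 fell from 231 ± 45.7 to 31.3 ± 17.7 CPM. Acsl5, an acyl-CoA synthetase gene, rose from 1.17 ± 0.340 to 8.93 ± 3.47 CPM. Of 22 tested genes of fatty acid oxidation 8 rose (36.4%) and 7 fell (31.8%), near the shares of all tested genes, or 3 fell with total-count scaling. Cpt2, encoding the inner carnitine palmitoyltransferase of mitochondria, rose from 13.3 ± 2.31 to 92.9 ± 39.1 CPM. Acadm, the medium-chain acyl-CoA dehydrogenase gene, fell from 302 ± 34.4 to 78.5 ± 16.2 CPM, and Etfb, encoding a subunit of its electron acceptor, from 679 ± 17.5 to 164 ± 45.3 CPM.

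Of 20 tested genes of glyceride synthesis and lipid droplets 6 rose (30%) and 5 fell (25%), which are the shares of all tested genes (29.7% and 25.0%). Under total-count scaling 2 fell. The 5 CPM filter left 13, of which 4 rose and 3 fell, and the shares of all genes with that filter are not given here. Bscl2, encoding the droplet assembly protein seipin, rose from 16.5 ± 7.63 to 126 ± 44.2 CPM, and Agpat3, an acyltransferase gene, from 4.56 ± 1.54 to 16.3 ± 2.84 CPM. Mogat1, a monoacylglycerol acyltransferase gene, had 2 counts summed over control libraries and 262 summed over A485 libraries.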
